A study of Mus musculus with 12 samples.

Results

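Respiratory complex I (NADH:ubiquinone oxidoreductase) is the large entry enzyme of the mitochondrial electron transport chain. The values here are the messenger RNA levels of 35 of its nuclear-encoded subunit genes, taken by symbol with assembly factors left out. All 35 were listed in both deposited count tables, which hold 26639 features for tissue and 22851 for cultures, and all 35 passed the filter on low counts in both. The knockout targets Fam50a, which encodes the nuclear protein Xap5, through a Cre recombinase driven by the adiponectin promoter, which is active in mature adipocytes. White adipose tissue (WAT) was taken at postnatal day 42 from wild-type mice (WT) and from Xap5 Adiponectin-cKO mice (cKO). Cultured adipocytes of WT and XAP5 KO genotype (KO) were taken at day 8 of adipogenic induction; their precursors came from the subcutaneous white fat of newborn WT or cKO pups. Sex and strain were not stated in the labels. Each of the 4 groups had 3 libraries, and the labels do not say whether these came from different animals or dishes; the p-values therefore describe the spread among the samples at hand, and part of that spread may be technical.

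Complex I takes electrons from NADH, passes them along a chain of iron-sulphur clusters to ubiquinone, and pumps protons out of the mitochondrial matrix. It is built from modules: the N module oxidises NADH, the Q module reduces ubiquinone, and the membrane arm, named after its mitochondrially encoded subunits ND1, ND2, ND4 and ND5, moves the protons. Core subunits carry out catalysis, while accessory subunits surround and stabilise them, and a subunit left without its partners is usually broken down. Brown and muscle cells are rich in mitochondria, and white adipocytes use the chain for fat storage and for making fatty acids as well as for ATP.

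Libraries held 28844370 to 33997204 counts in WAT and 10863158 to 21773610 in culture, where KO replicates 2 and 3 were the deepest. Fam50a was at 34.8 ± 2.09 CPM (read counts scaled to a common library size; SD, n = 3) in WT WAT and 23 ± 6.07 in cKO WAT, a log2 fold change of -0.60 (adjusted p 0.0395). In culture it was at 51.7 ± 6.33 CPM in WT and 43.4 ± 2.58 in KO, and this difference did not pass the test (log2 fold change -0.26, adjusted p 0.134). Which exons were deleted is not given in the sources used here, so these counts over the whole gene are a weak check of the genotype labels. The mature adipocyte marker Adipoq was at 4609 to 5369.96 CPM in WT WAT, 614 to 1931 in cKO WAT, 1967 to 2118 in WT culture and 2662 to 3036 in KO culture, so both materials carried the marker of their label. Scaling mattered in tissue: TMM factors, which correct for a changed RNA composition, were 0.781 to 0.796 in WT WAT and 1.23 to 1.30 in cKO WAT. With scaling by library size alone, the middle log2 fold change over the whole WAT table moved from 0.12 to 0.80, and the split of calls moved from 28.2% of genes higher and 24.2% lower (52.4% in all) to 54.2% higher and 8.76% lower.

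The start regions of these genes are shown because the genes moved together in the tissue. RefSeq windows of 250 bases before the gene start (GRCm38.p6) were present for 32 of the 35 members. Letter patterns of 7 transcription factors, chosen from general knowledge with the members' values known, were searched on both strands. The pattern of NRF1 (GCGC, any base, T, GCGC), a factor known for binding genes of the respiratory chain, was found in 6 of 32 members (18.75%) and in 4.23% of 27025 genes with a window. It is shown in capitals in each match with its flanking bases, written 5′ to 3′ on the strand of the gene, so that a match on the opposite strand reads in reverse complement. Of the 8 stretches, 5 overlap an exon of some GENCODE transcript on either strand (Ndufa5, Ndufa8, the first 2 of Ndufb4 as printed, and Ndufs6) and so are not all outside transcribed sequence.
Ndufa5 (chr6:24527697-24527726, minus strand): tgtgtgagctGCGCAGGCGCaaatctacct
Ndufa8 (chr2:36049349-36049378, minus strand): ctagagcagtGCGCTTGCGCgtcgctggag
Ndufa11 (chr17:56717692-56717721, plus strand): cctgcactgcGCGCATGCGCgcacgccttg
Ndufb4 (chr16:37654371-37654400, minus strand): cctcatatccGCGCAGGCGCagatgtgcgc
Ndufb4 (chr16:37654428-37654457, minus strand): ccttgtgcgcGCGCAGGCGCacttcctgag
Ndufb4 (chr16:37654540-37654569, minus strand): gagaagcagtGCGCACGCGCagaatacgcg
Ndufs5 (chr4:123718265-123718294, minus strand): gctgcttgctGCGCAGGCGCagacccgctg
Ndufs6 (chr13:73328483-73328508, minus strand): cgactgctgtGCGCCTGCGCcggcac

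Ndufb4 held 3 matches, and the match in Ndufs6 lay closest to a gene start, 6 bases away. The CREB pattern TGACGTCA was found in Ndufa10, Ndufa11 and Ndufb2, which is 9.38% of members beside 1.77% of all genes; those in Ndufa10 and Ndufa11 overlap an annotated exon as well. The other 5 patterns were at about the share of all genes or absent. The ETS pattern CCGGAAG was in 3 members (9.38%, beside 7.83% of all genes), the SP1 pattern GGGGCGGGG in 4 (12.5%, beside 11.8%) and the NFY pattern CCAATNNG in 4 (12.5%, beside 14.5%). The YY1 pattern AAGATGGCG and the ERR pattern TCAAGGTCA were in none of the 32 member windows, beside 0.711% and 0.422% of all genes. No pattern contains another. The member windows were also richer in CG dinucleotides, with a median of 15.5 a window beside 6 over all windows, and every one of the NRF1 matches contains them. The 6 genes with an NRF1 match ranged in WAT from -1.67 (Ndufs6) to -0.94 (Ndufa5, the smallest fall of the 35). Whether they differed from the other members was not tested.

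In unperturbed tissue these are abundant transcripts: 31 of the 35 were among the top 10% of genes tested in WAT by WT level, and 21 of 35 in culture. Per kilobase of transcript, the ND5 module subunits Ndufb9 and Ndufb8 had the highest levels in WT WAT, 1416 and 1356 CPM per kb, and they were also the top pair in WT culture, at 482 and 533 CPM per kb. The lowest level in WT WAT was that of Ndufa5, a Q module subunit, at 84.6 CPM per kb, and in WT culture that of the mitochondrial acyl carrier protein Ndufab1, at 73.7 CPM per kb. The order of the members' WT levels in CPM was alike in both materials (Spearman 0.77 over 35 genes, a description only, since transcript length is shared by both sides). Ndufa7 was the main exception per kb, at place 31 of 35 in WAT and place 3 in culture; the WAT table splits this symbol into numbered copies, each with counts of its own.

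In WAT, all 35 complex I subunit genes were lower in cKO than in WT, against a background of 24.2% of the 16293 genes tested that were called lower. The median log2 fold change over the members was -1.47, where the median of all genes was 0.12. The range ran from -2.15 for Ndufs3 to -0.94 for Ndufa5. In 34 of the 35 the log2 fold change was -1 or less, as in 13.9% of all genes. Every cKO library lay below every WT library for each of the 35 genes, a pattern shown by 29.3% of all genes. With library size alone 24 of the 35 were still called lower, beside 8.76% of all genes. The median was then -0.79, which was -1.60 relative to all genes (-1.59 with TMM). Ndufa5 lost its call when any 1 WT library or cKO replicate 1 was left out (adjusted p 0.0719 to 0.102) and with the trend in transcript length and GC removed (adjusted p 0.0519), and Ndufb3 when WT replicate 1 or cKO replicate 1 was left out.

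**Figure D1:**
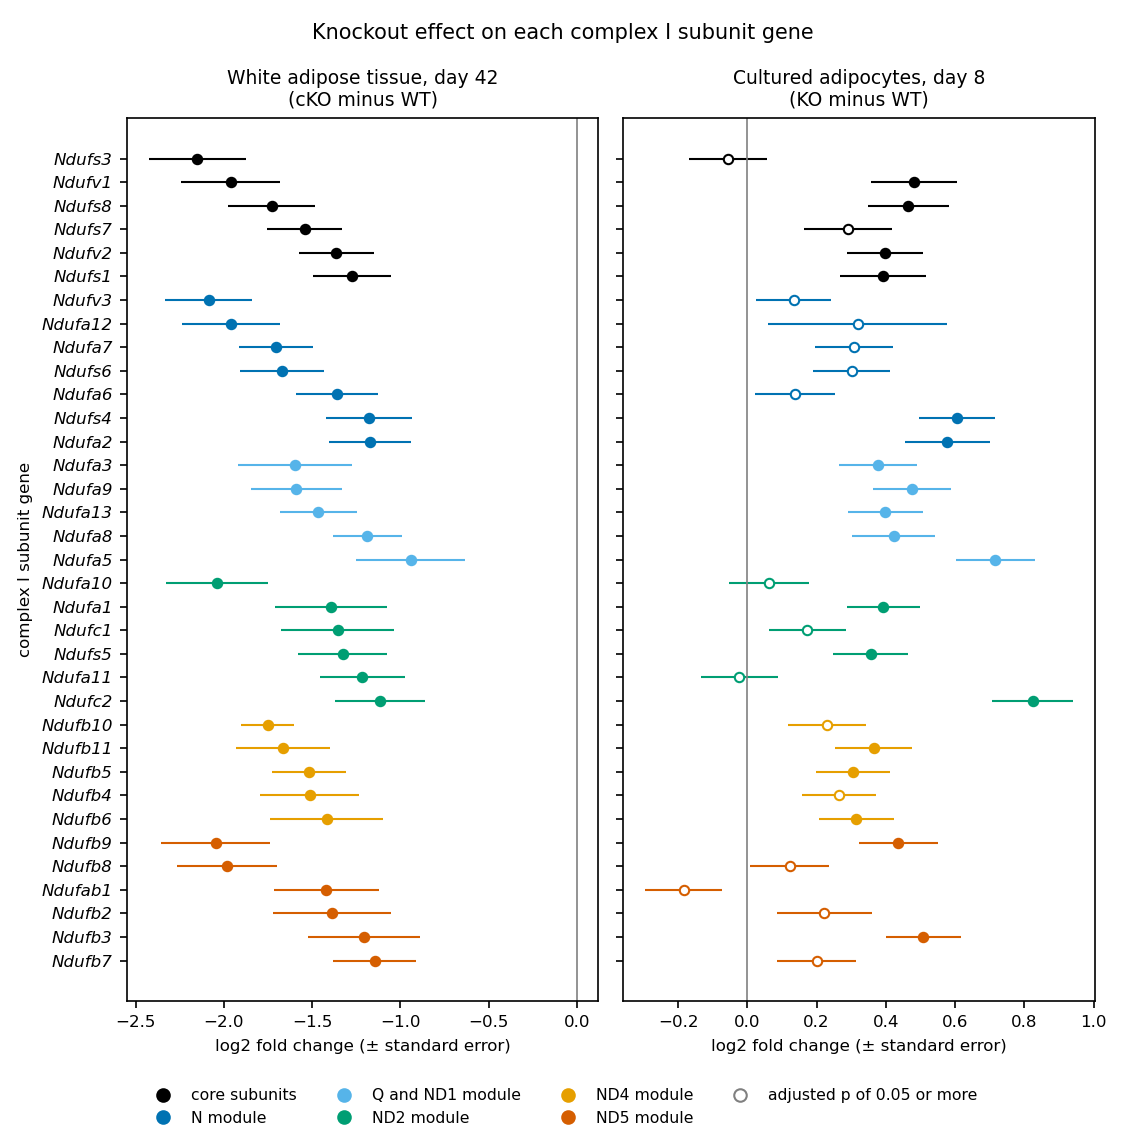
Log2 fold change (knockout minus WT, horizontal axis) with its standard error for each of the 35 subunit genes, grouped by module, in WAT (left) and in culture (right; the axes differ in scale). All 35 points in WAT lie between -2.15 and -0.94, and 32 of 35 in culture lie above 0; open points did not pass an adjusted p of 0.05.

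Among the 6 core subunits of the peripheral arm, the largest fall was that of Ndufs3, the subunit beside the ubiquinone site. It was at 249, 179 and 179 CPM in replicates 1 to 3 of WT, against 46.6, 59.9 and 29.9 CPM in cKO (log2 fold change -2.15, SE 0.28, adjusted p 0.00116). The groups were far apart, and no cKO library came near the WT values. Ndufv1, which holds the flavin that accepts electrons from NADH, was at 998, 876 and 679 CPM in WT, against 199, 301 and 155 in cKO (-1.96, SE 0.28, adjusted p 0.00162). The smallest change of the group was that of Ndufs1, the largest iron-sulphur subunit, at 245 ± 29.7 CPM in WT and 101 ± 29.3 in cKO (-1.27, SE 0.22, adjusted p 0.00321). The iron-sulphur subunits Ndufs8 (-1.73), Ndufs7 (-1.54) and Ndufv2 (-1.36) lay between these.

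The 7 accessory subunits of the N module had a median of -1.67. Ndufv3 was at 348, 347 and 271 CPM in the WT libraries, against 73.6, 100.5 and 53.5 CPM in cKO (-2.09, SE 0.25, adjusted p 0.000913). Ndufa12 changed by -1.96, Ndufa7 by -1.70, the zinc-binding Ndufs6 by -1.67 and the LYR protein Ndufa6 by -1.36. Ndufs4, whose loss causes a known mouse model of complex I deficiency, was at 221 ± 9.09 CPM in WT and 97.5 ± 32.5 in cKO (-1.18, SE 0.24, adjusted p 0.00603). Ndufa2 changed by a like amount (-1.17, SE 0.23, adjusted p 0.0052).

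Of the 5 accessory subunits of the Q and ND1 modules, Ndufa3 (-1.60), the nucleotide-binding Ndufa9 (-1.59) and Ndufa13, also known as Grim-19 (-1.47), changed most, followed by Ndufa8 (-1.19). Ndufa5, which sits beside the Q module core, changed least of all 35 members. It was at 81.6, 64.8 and 75.7 CPM in the WT libraries, against 37.7, 55.8 and 22.1 CPM in cKO (-0.94, SE 0.31, adjusted p 0.037). The gap between its highest cKO and lowest WT library was narrow, and its error was among the largest.

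In the membrane arm, the ND2 module subunit Ndufa10 was at 934, 867 and 620.1 CPM in the WT libraries, against 173, 274 and 142 CPM in cKO (-2.04, SE 0.29, adjusted p 0.00157). The other 5 members of that module changed less: Ndufa1 by -1.39, Ndufc1 by -1.36, Ndufs5 by -1.33, Ndufa11 by -1.22 and Ndufc2 by -1.12. The ND4 module held the member with the smallest p, Ndufb10, at 449, 438 and 409.6 CPM in WT, against 128, 147 and 109.6 CPM in cKO (-1.75, SE 0.15, adjusted p 0.000527). Its cKO libraries were the most alike of all members, with a coefficient of variation of 14.6%. Ndufb11 (-1.66), Ndufb5 (-1.52), Ndufb4 (-1.51) and Ndufb6 (-1.42) completed this module. In the ND5 module at the tip of the membrane arm, the LYR protein Ndufb9 was at 1081, 997 and 914 CPM in the WT libraries, against 219, 355 and 149.8 CPM in cKO (-2.05, SE 0.31, adjusted p 0.00203), and Ndufb8 changed alike (-1.98). Ndufab1 (-1.42), Ndufb2 (-1.39), Ndufb3 (-1.21) and Ndufb7 (-1.14) changed less, and Ndufb3 no longer passed without WT replicate 1 (adjusted p 0.0502) or cKO replicate 1 (adjusted p 0.0584).

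The summed level of the 35 genes was 12685, 11438 and 10346 CPM in WT WAT, against 3486, 5172 and 2635 CPM in cKO WAT. On the unscaled counts this was 0.908% ± 0.0955 of a library's counts in WT and 0.473% ± 0.149 in cKO (SD, n = 3). The cKO libraries were ordered the same way for nearly every gene: replicate 2 was the highest of its group in 35 of 35 members and replicate 3 the lowest in 33. Without cKO replicate 2 the median over members was -1.86. The median coefficient of variation over members was 33.7% in cKO and 9.45% in WT.

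**Figure D2:**
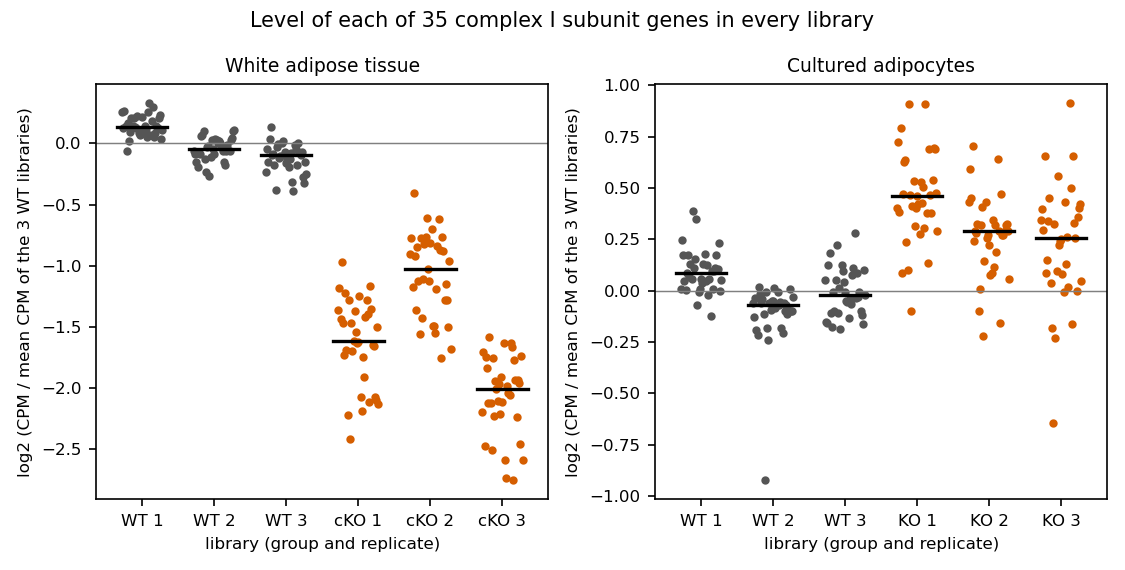
Level of each of the 35 genes in every library, as log2 of its CPM over the mean of the 3 WT libraries (points; the bar is the median over genes), in WAT (left) and culture (right; the vertical axes differ). In WAT the medians were -1.62, -1.03 and -2.01 in cKO replicates 1 to 3, and in culture 0.46, 0.29 and 0.26 in KO replicates 1 to 3.

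Markers of cell types moved with these levels in WAT. Of all genes tested in WAT, 28.2% were called higher in cKO and 24.2% lower. The summed level of 12 mature adipocyte markers was 65185 to 68889 CPM in WT, against 11774, 21572 and 8365 CPM in cKO replicates 1 to 3, with 11 of the 12 called lower (median -1.80). The cKO libraries thus had the same order for adipocyte markers as for complex I, with replicate 2 highest and replicate 3 lowest. The 8 macrophage markers summed to 410.4 to 635 CPM in WT, against 3688, 1847 and 4068 CPM in cKO, with 7 of 8 called higher, and the 8 markers of preadipocytes and fibroblasts to 2538 to 3266 and 8979.8, 5805 and 9085 CPM, also with 7 of 8 higher. The 7 brown adipocyte markers summed to 1025 to 1933 CPM in WT, against 206, 523 and 93.4 CPM in cKO, with 2 called lower and 1, Dio2, higher. Of 6 endothelial markers 4 were lower (474 to 729 CPM in cKO, 864 to 1199 in WT, median -0.74). By library size alone, however, none was lower and 1 was higher (median -0.06), beside 8.76% and 54.2% of all genes. None of the 5 lymphocyte markers tested was called (10.1 to 19.5 CPM summed over all 6 listed, in any library). Of 6 skeletal muscle markers 1, the myosin heavy chain Myh1, was called higher in cKO (5.48, SE 1.74, adjusted p 0.0324), although it was at 54.4, 5.53 and 0.498 CPM in cKO replicates 1 to 3 and at 0, 0.709 and 0.62 CPM in WT, so that the groups overlapped. The summed muscle markers were at 1439 CPM in WT replicate 3 and 1135 CPM in cKO replicate 1 beside 32.8 to 237 CPM in the other 4, with both groups over a like range, and mammary epithelium markers stood at 549 CPM in cKO replicate 3 alone, beside 23 CPM or less elsewhere. The part of these differences in the complex I result was not tested, and in bulk tissue fewer cells of a type and less RNA per cell cannot be told apart.

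**Figure D3:**
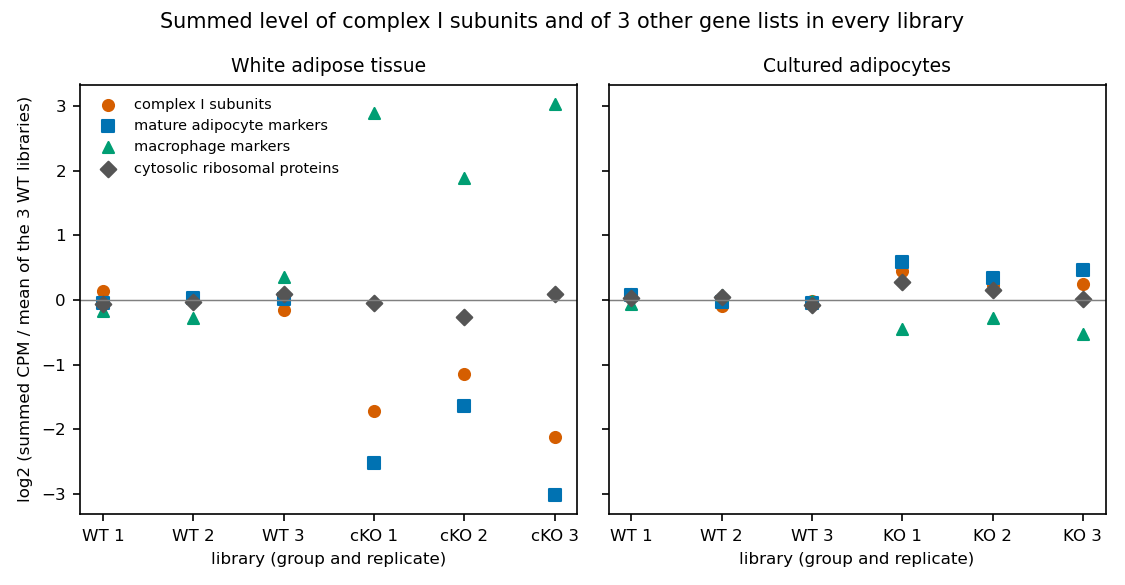
Summed CPM of the 35 complex I subunits and of 3 other gene lists in every library, as log2 over the mean of the 3 WT libraries, in WAT (left) and culture (right). In WAT, complex I and the adipocyte markers are low and the macrophage markers high in all 3 cKO libraries, while ribosomal protein genes stay near 0 on this TMM scale (by library size alone their median is 0.64); in culture, complex I and the adipocyte markers are above 0 in all 3 KO libraries and the macrophage markers below.

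In culture, 19 of the 35 genes were higher in KO than in WT and none was lower, where 8.94% of the 12587 genes tested were called higher and 10.6% lower. The median over the members was 0.32 on the log2 scale, with a range from -0.18 to 0.82, and the median of all genes was -0.02. The fold change was positive for 32 of 35 genes, and in 24 of them every KO library lay above every WT library, as in 18% of all genes. In 5 members it was 0.5 or more, a size reached by 5.81% of all genes. Without WT replicate 2, 7 members were called, where 3.13% of all genes were called higher, and without KO replicate 1, 10 members, beside 5.49%. In edgeR with 1 fit over all 4 groups, which shares the wider spread of the tissue libraries, no member was called (10 at an unadjusted p under 0.05), and only 0.401% of all genes were called higher there, so few genes of any kind passed.

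The largest rise was that of Ndufc2, a subunit of the ND2 module, at 108, 91.5 and 112 CPM in replicates 1 to 3 of WT, against 195, 162 and 196 CPM in KO (log2 fold change 0.82, SE 0.12, adjusted p 5.53e-05). Ndufa5 was at 67.8, 57.6 and 71.6 CPM in the WT libraries, against 114, 107 and 103 CPM in KO (0.72, SE 0.11, adjusted p 0.000197). Ndufs4 was at 128, 119 and 135 CPM in the WT libraries, against 206, 177 and 201 CPM in KO (0.61, SE 0.11, adjusted p 0.000629). In each of these genes all KO libraries lay well above all WT libraries. Each also stayed called in 16 of the 17 alternatives computed for the cultures, the exception being the fit over all 4 groups. Among the 17, summing numbered copies gave the same result in culture as the fit reported (12587 genes, 19 members called). Ndufa2 (0.58, SE 0.12, adjusted p 0.00237) and Ndufb3 (0.51, SE 0.11, adjusted p 0.00236) were the other members at 0.5 or more.

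By module, all 5 Q and ND1 module accessory subunits were called higher: Ndufa5, Ndufa9 (0.48), Ndufa8 (0.42), Ndufa13 (0.40) and Ndufa3 (0.38). Of the 6 core subunits 4 were called, Ndufv1 (0.48), Ndufs8 (0.47), Ndufv2 (0.40) and Ndufs1 (0.39), while Ndufs7 had 0.29 (adjusted p 0.108). Ndufs3, the member with the largest fall in WAT, was at 280.0, 251 and 255 CPM in WT culture and 288, 235 and 234 CPM in KO (-0.06, SE 0.11, adjusted p 0.769), so that its groups overlapped. Of the 7 accessory subunits of the N module, Ndufs4 and Ndufa2 passed; Ndufa7 (0.31) and Ndufs6 (0.30) both had an adjusted p of 0.0557, and Ndufa6 (0.14) and Ndufv3 (0.13) were further from it. Ndufa12 could not be judged well, since its libraries spread from 61.9 to 153 CPM in WT and from 75.1 to 220.2 CPM in KO (0.32, SE 0.26, adjusted p 0.407).

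In the ND2 module Ndufc2, Ndufa1 (0.39) and Ndufs5 (0.36) were called. Ndufc1 (0.17), Ndufa10 (0.06) and Ndufa11 were not, and the last was at 109, 96.6 and 108 CPM in WT, against 112, 105 and 92.1 CPM in KO (-0.02, SE 0.11, adjusted p 0.906). The ND4 module had 3 called members, Ndufb11 (0.37), Ndufb6 (0.31) and Ndufb5 (0.31), and 2 that were not, Ndufb4 (0.26, adjusted p 0.0831) and Ndufb10 (0.23, adjusted p 0.149). In the ND5 module Ndufb3 and Ndufb9 (0.44) were called, while Ndufb2 (0.22), Ndufb7 (0.20) and Ndufb8 (0.12) were not. Ndufab1 had the lowest value of all, at 285, 226 and 259 CPM in WT, against 239, 220.0 and 219 CPM in KO (-0.18, SE 0.11, adjusted p 0.254). Besides complex I, Ndufab1 serves as the acyl carrier of mitochondrial fatty acid synthesis.

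The summed level in culture was 6808, 5982 and 6314 CPM in WT, against 8682, 7511 and 7533 CPM in KO. KO replicate 1, the shallowest library, had the highest value of its group for 29 of the 35 members. Thinning every culture library to the smallest total left 20 members called higher, beside 9.22% of all genes. Summed adipocyte markers were higher in KO here, and those of macrophages and of preadipocytes and fibroblasts lower, the other way round than in WAT. Endothelial markers were lower in KO, as they were in cKO WAT on the TMM scale. The adipocyte markers summed to 20146 to 22041 CPM in WT and 26478 to 31296 CPM in KO. Of 11 tested, 5 were called higher and 1 lower, where 8.94% of all genes were called higher and 10.6% lower. The macrophage markers, present in culture at 2767 to 3039 CPM in WT and 2019 to 2383 CPM in KO, had 3 of 8 lower, and those of preadipocytes and fibroblasts (12205 to 15163 and 9525 to 11136 CPM) had 2 of 7 lower and 1 higher. Brown adipocyte markers were low, at 68.2 to 114 CPM, with 3 of 6 tested higher; endothelial markers were at 305 to 376 CPM in WT and 238 to 274 in KO with 2 of 6 lower; and those of muscle, lymphocytes and mammary epithelium were at 18.7 CPM or less. Their part in the complex I values was not tested.

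Whether the knockout effect in culture differed from that in WAT was asked with an interaction term fitted to the 12 libraries together. It was positive and past the threshold for all 35 genes, beside 21.1% of the 14463 genes tested (48.8% passed in either direction, 27.7% with a negative difference), with a median of 1.79 on the log2 scale (median of all genes -0.22). It ran from 1.16 for Ndufa11 to 2.45 for Ndufb9 and had its smallest p at Ndufb10 (1.95, SE 0.18, adjusted p 9.78e-06). All 35 remained called in every fit that left out 1 library, and 33 with scaling by library size alone, which lowered the median to 1.14. With that scaling 8.28% of all genes were called with a positive difference. The tissue and culture also differ in age, in preparation and in sequencing depth, and these cannot be told apart from the material.

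**Figure D4:**
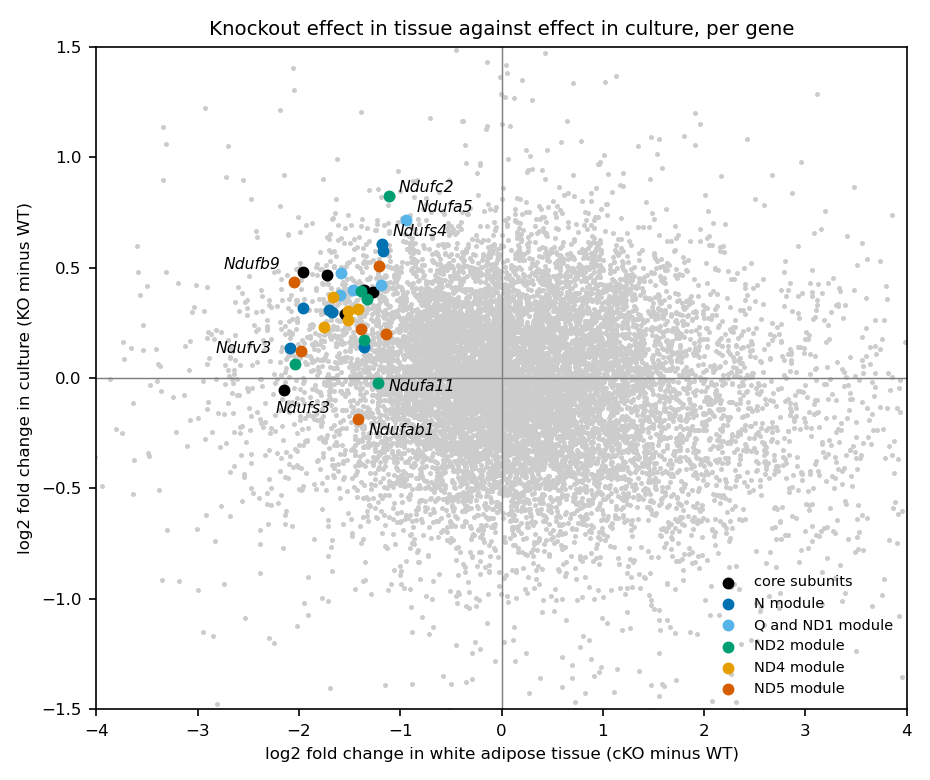
Log2 fold change in culture (vertical) against that in WAT (horizontal) for the 35 members, coloured by module, and for all genes tested in the interaction (grey; genes beyond the axes are not drawn). All members lie left of 0, and 32 of the 35 lie above the horizontal line at 0, from Ndufs3 at the lower left to Ndufc2 and Ndufa5 at the upper right.

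Within the family, members that fell less in WAT tended to rise more in culture (Spearman 0.37, Pearson 0.40 over 35 genes, without a test since the genes share their libraries). The pattern can be read from each gene's share of the summed complex I level. Ndufs3 made up 1.75% ± 0.200 of the sum in WT WAT and 1.21% ± 0.11 in cKO (SD, n = 3), and 4.12% ± 0.0779 in WT culture and 3.19% ± 0.111 in KO. Its share was thus lower with the knockout in both materials, although the sum went in opposite directions. The WAT shares leave out the numbered copy Ndufs3-2 (279 CPM in WT and 62.4 in cKO). The size of the Ndufs3 share therefore cannot be compared between WAT and culture. Ndufc2 went from 2.84% ± 0.233 to 3.97% ± 0.126 in WAT and from 1.63% ± 0.130 to 2.33% ± 0.232 in culture. Ndufa5 went from 0.647% ± 0.0827 to 1.00% ± 0.139 in WAT and from 1.03% ± 0.0910 to 1.37% ± 0.0595 in culture. For these 3 genes the WT and knockout shares did not overlap in either material, a description of genes chosen for their values. The same held in both materials for Ndufa10, Ndufb8 and Ndufv3, with a lower share in the knockout. It also held for Ndufa2, Ndufs4 and Ndufs5, with a higher one. These genes too were chosen for their values, and the rate over all genes was not computed for shares. On CPM, every knockout library lay below every WT library in 29.3% of all genes in WAT and 18.8% in culture. Every knockout library lay above every WT library in 35.1% and 18%. Ndufa11 had a higher share in cKO WAT (1.70% ± 0.140 to 2.23% ± 0.0588) and a lower one in KO culture (1.64% ± 0.0653 to 1.30% ± 0.0889). Over the 35 members, the WAT fold change had a Spearman correlation of -0.23 with transcript length and -0.36 with GC content, and the culture fold change one of 0.11 and -0.31. Members are short, with a median transcript of 763 bases beside 2937.5 for genes tested in WAT. With the trend in length and GC removed 34 were called lower in WAT (median -1.30), beside 31.0% of all genes. Relative to all genes, the WAT median moved from -1.59 to -1.18. In culture 15 were then called higher, beside 11.4% of all genes. The median there fell from 0.32 to 0.19 (from 0.34 to 0.17 relative to all genes). Of the 19 called before, 13 were among them; Ndufa1, Ndufa3, Ndufb3, Ndufb5, Ndufb6 and Ndufv2 lost the call, while Ndufa7 and Ndufs7 gained it.

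The other parts of the chain moved alongside. Beside them, 24.2% of all genes tested in WAT were called lower and 28.2% higher. In WAT all 4 tested subunits of complex II were lower (median -1.63), all 9 of complex III (-1.60), all 11 of complex IV (-1.45) and 13 of 15 of complex V, the ATP synthase (-1.36). Examples are Sdha, the flavoprotein of succinate dehydrogenase, at -2.02, Uqcrc1 of complex III at -1.82 and Cox6a1 of complex IV at -2.18. Other routes into ubiquinone fell as well, 7 of 9, with Prodh (proline dehydrogenase) at -3.57 and Sqor (sulphide oxidation) at -1.87. Of the 10 genes of general mitochondrial content 7 were lower (median -0.69), among them the cristae organiser Immt at -1.5 and the prohibitin Phb2 at -1.10. By library size alone, where 54.2% of all genes were called higher and 8.76% lower, 4 of these 10 were lower and 1 higher. Their median was then -0.01 (-0.81 relative to all genes under either scaling). The same scaling gave 4 of 4 lower in complex II, 7 of 9 in complex III, 8 of 11 in complex IV, 9 of 15 in complex V (1 higher) and 5 of 9 of the other routes (1 higher). Relative to the median of all genes, cytosolic ribosomal protein genes were nearly level at -0.15, with 8 of 77 lower and 6 higher, and proteasome genes were at -0.72 with 21 of 31 lower; by library size alone the ribosomal median turned positive (0.64), with 57 of 77 higher and none lower, and the proteasome median reached 0.08, with 8 of 31 higher and 1 lower. Relative to all genes these medians were still at -0.16 and -0.72.

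**Figure D5:**
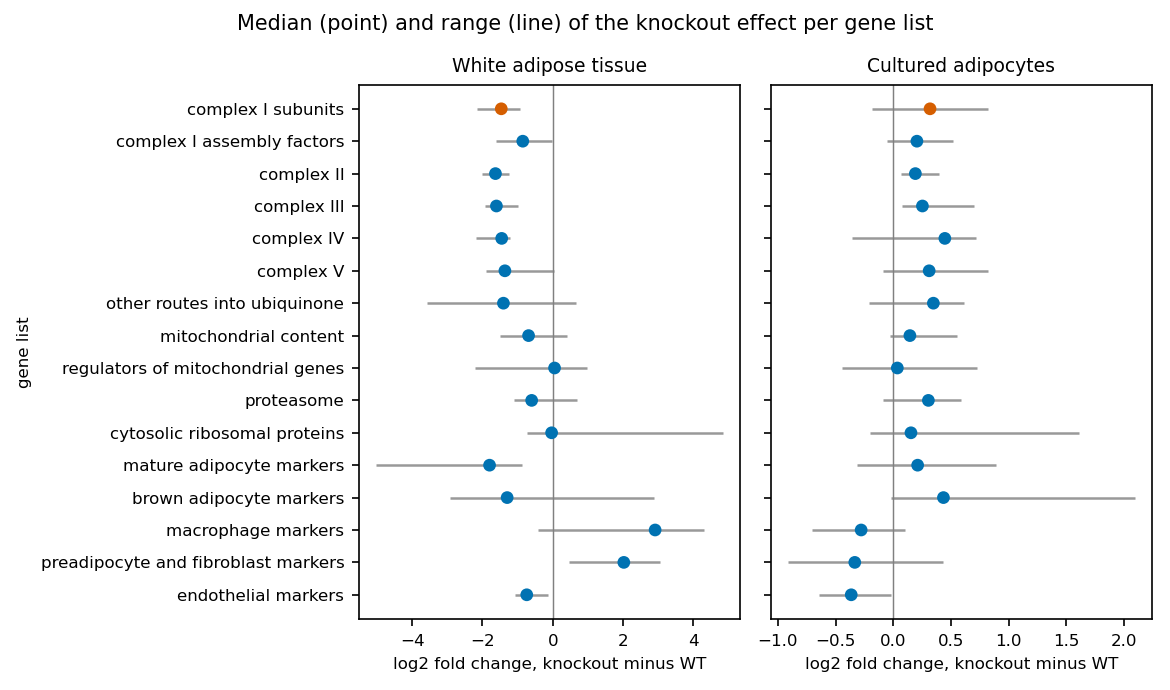
Median (point) and range (line) of the log2 fold change of each gene list in WAT (left) and culture (right; the axes differ). The complex I subunits (orange) sit at -1.47 in WAT, beside complexes II to V at -1.63 to -1.36, and at 0.32 in culture, beside 0.19 to 0.45.

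Complex I assembly factors, chaperones that build the enzyme and are not part of it, had a smaller median in WAT (-0.85). Of 17 tested, 13 were called lower, beside 24.2% of all genes. Ecsit changed by -1.62, Nubpl, which delivers iron-sulphur clusters, by -1.49 and Ndufaf3 by -1.36, while Ndufaf2 was at 9.12 ± 1.66 CPM in WT and 8.96 ± 2.56 in cKO (-0.03, adjusted p 0.939) and Ndufaf4 at -0.07 (adjusted p 0.801). In culture 6 of 17 were higher and none lower (median 0.21), beside 8.94% and 10.6% of all genes. Ndufaf1 was at 0.52 (adjusted p 0.00282) and Tmem126b at 0.50 (adjusted p 0.0116). By library size alone, 5 assembly factors were called lower and 1 higher in WAT, beside 8.76% and 54.2% of all genes.

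The mitochondrially encoded complex I subunits were listed for the cultures and were not analysed here in WAT. Of 7 in culture, 3 were higher and none lower, beside 8.94% and 10.6% of all genes. Those called were ND1 (0.63, SE 0.15, adjusted p 0.00495), ND4 (0.48, SE 0.14, adjusted p 0.0162) and ND2 (0.46, SE 0.15, adjusted p 0.0358). All mitochondrially encoded genes together took 8.90% to 12.1% of counts in the WT cultures and 11.1% to 15.1% in the KO cultures. With these genes removed from the table, 21 nuclear members were called higher in culture, beside 9.56% of all genes.

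In culture the nuclear subunits of the other complexes were called higher in 1 of 4 (complex II), 4 of 9 (complex III), 6 of 11 (complex IV, with 1 lower) and 8 of 15 (complex V), with medians from 0.19 to 0.45. Uqcrh (0.70), Cox7a2 (0.72) and Atp5k (0.82) were among them. Proteasome genes had 16 of 31 higher (median 0.30) and ribosomal protein genes 14 of 77 (0.15), so rises of this size also occurred outside mitochondria. Of all genes tested in culture, 8.94% were called higher and 10.6% lower.

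Regulators known for controlling respiratory chain genes did not move as a block. Of the 12 tested in WAT, 2 were called higher and 3 lower, beside 28.2% and 24.2% of all genes. In WAT the orphan receptor Esrra was at 142 ± 8.61 CPM in WT and 69.4 ± 6.48 in cKO (log2 fold change -1.03, SE 0.12, adjusted p 0.00095), Polrmt, the mitochondrial RNA polymerase, changed by -0.87 (adjusted p 0.00991) and the scarce Esrrb by -2.23 (adjusted p 0.00874). Pprc1, a coactivator of the PGC-1 family, was higher (0.98, adjusted p 0.00378), as was Gabpa, an ETS factor (0.94, adjusted p 0.0154). Ppargc1a (2.65 ± 1.86 CPM in WT and 2.62 ± 1.19 in cKO), Nrf1 (22 ± 2.28 and 22.6 ± 0.631) and Tfam (26.8 ± 2.29 and 26 ± 2.82) did not pass, nor did the other 4 of 12. By library size alone 5 of the 12 were called higher and 2 lower, beside 54.2% and 8.76% of all genes. In culture 2 of 10 tested were higher, Tfb2m (0.72, adjusted p 0.000525) and Tfam (0.48, adjusted p 0.0146), and Pprc1 was lower (-0.45, adjusted p 0.0107). Of all genes in culture, 8.94% were called higher and 10.6% lower.

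Some members share sequence or position with other genes. The WAT table lists numbered copies of Ndufs3 and Ndufa7 on rows of their own. Ndufs3-2 changed by -2.16 (adjusted p 0.000633), and with the copies summed Ndufs3 remained at -2.16 and Ndufa7 at -1.66. The copies Ndufa7-2 (-1.85) and Ndufa7-3 (-1.60) were called lower and Ndufa7-4 (-1.31, adjusted p 0.105) was not. The near-identical genes Ndufb4b and Ndufb4c changed in WAT by -1.70 and -1.71, beside -1.51 for Ndufb4. In culture, where they were scarce, Ndufb4c was lower (-0.81, adjusted p 0.0176) and Ndufb4b was not called (0.18, adjusted p 0.709). Exons of 15 members overlap those of another gene in the GENCODE annotation, 12 of them on the opposite strand alone, and whether the counting used strand is not given in the sources used here, so counts of those members may include reads of a neighbour.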

How the data were processed

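Messenger RNA libraries (MGIEasy kit, per the labels' protocols) were counted per gene, and the authors deposited raw counts in 1 table for WAT and 1 for cultures, without normalization. GRCm38, HISAT2 2.1.0, cutadapt 1.11 and FastQC 0.11.2 appear in the submitters' processing notes; for the counting tool and its settings nothing is given in the sources used here. The members and all gene lists were chosen with earlier results of these data known; every member is named, and from other lists mainly the 2 genes of smallest p, with further ones named after their values were seen. Groups came from the sample titles.

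Each comparison was fitted on all genes in edgeR 4.0.16 (R 4.3.3; quasi-likelihood test; filterByExpr, minimum count 10; TMM) with Benjamini-Hochberg adjustment and a threshold of 0.05; all adjusted p-values come from it. Levels are CPM scaled by TMM. The SE is the log2 fold change over the square root of F. Libraries of a group differed by more than counting noise (chi-square over its degrees of freedom 4.81 to 202). Lengths and GC come from GENCODE transcripts of GRCm38 (85.8% of genes tested in WAT, 98.0% in culture); the choice of transcript was revised once after values were seen. The scripts were tested on simulated data with changes planted in a small part of the genes. The WAT fit recovered 8.96% of 2-fold and 68.2% of 4-fold changes, the culture fit 92.5% and 93.9%, and the interaction 31.3% and 71.2%. Of 1.5-fold changes the WAT fit recovered 1.49%, the culture fit 64.2% and the interaction 0%. The largest rise of a member in culture, that of Ndufc2, was 1.77-fold. Of the calls 10.3% were false in WAT, 2.91% in culture and 2.86% for the interaction. The share in WAT was above the threshold of 0.05. Alternatives were RLE factors, library size alone, no filter, a replicate block, DESeq2 1.42.0, limma 3.58.1 voom, length and GC, summed copies, 1 fit over 4 groups, removal of mitochondrial genes, leaving out each library and, added after seeing the data, thinning.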

Additional observations from a re-analysis of the deposited data

Results flagged for a closer look

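For each of the 35 genes the knockout effect in culture differed from that in WAT by the interaction test of edgeR, which is why each is listed here with its difference (culture minus WAT, log2 scale). Among the core subunits it was 2.41 for Ndufv1, 2.16 for Ndufs8, 2.06 for Ndufs3, 1.80 for Ndufs7, 1.73 for Ndufv2 and 1.63 for Ndufs1. In the N module it was 2.25 for Ndufa12, 2.19 for Ndufv3, 1.98 for Ndufa7, 1.94 for Ndufs6, 1.75 for Ndufs4, 1.72 for Ndufa2 and 1.46 for Ndufa6. In the Q and ND1 modules it was 2.03 for Ndufa9, 1.94 for Ndufa3, 1.83 for Ndufa13, 1.63 for Ndufa5 and 1.58 for Ndufa8. In the ND2 module it was 2.07 for Ndufa10, 1.91 for Ndufc2, 1.75 for Ndufa1, 1.65 for Ndufs5, 1.497 for Ndufc1 and 1.16 for Ndufa11. In the ND4 module it was 2.00 for Ndufb11, 1.95 for Ndufb10, 1.79 for Ndufb5, 1.75 for Ndufb4 and 1.70 for Ndufb6. In the ND5 module it was 2.45 for Ndufb9, 2.07 for Ndufb8, 1.68 for Ndufb3, 1.58 for Ndufb2, 1.31 for Ndufb7 and 1.204 for Ndufab1. Adjusted p-values ran from 9.78e-06 for Ndufb10 to 0.00835 for Ndufab1. Of the 35 genes, 32 moved down in WAT with a positive value in culture, and Ndufs3, Ndufa11 and Ndufab1 had a negative value in both. With 3 libraries a group, no group was large enough for a search for single outlying libraries.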

How the results depend on the processing

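In WAT all 35 genes kept their direction in every alternative. In each fit that left out 1 library 33 to 35 were called, beside 18.3% to 25.3% of all genes called lower. The WAT median was -0.79 with library size alone, and it lay between -1.86 (without cKO replicate 2) and -1.27 when 1 library was left out. In culture the count of 19 fell to 0 in 1 fit over all 4 groups and ranged from 7 (without WT replicate 2) to 21 when 1 library was left out, with 10 without KO replicate 1, while its median lay between 0.26 and 0.40 in those fits and was 0.19 with the length and GC trend removed, where 13 of the 19 stayed called. Over all genes 0.401% were called higher in the fit over 4 groups, 3.13% without WT replicate 2 and 5.49% without KO replicate 1. The share was 13.5% without WT replicate 3, 11.4% with the length and GC trend removed and 8.94% in the fit reported. The median of the difference between materials was 1.14 with library size alone, where 33 members were called. It was 1.597 to 2.05 when 1 library was left out. All 35 members were called in each fit that left out 1 library, beside 18.3% to 22.6% of all genes with a positive difference. The cause of these shifts was not tested. The sign of 5 culture values that did not pass in the fit reported turned: Ndufc1 was at -0.0057 with the length and GC trend removed; Ndufa11 at 0.0058 after thinning, 0.013 without WT replicate 1, 0.011 without WT replicate 3 and 0.053 without KO replicate 3; the others turned when 1 library was left out, Ndufs3 ranging from -0.16 to 0.0018 (without WT replicate 1), Ndufa10 from -0.030 to 0.14 and Ndufa12, at 0.32 as reported, from -0.084 to 0.64 (both lowest without KO replicate 1). Ndufa12 was called without KO replicate 3 (0.64, adjusted p 0.00657) and with no filter on low counts (adjusted p 0.0277). The fits reported did not take replicate numbers as pairs. Correlations of same-numbered libraries were -0.33 to 0.03 in WAT, beside -0.015 to 0.34 for libraries of different number. In culture they were 0.03 to 0.24, beside -0.23 to 0.07, and whether the cultures were paired was not tested further. With the replicate number as a block 35 genes were called in WAT, 24 in culture and 35 for the difference. Of all genes, 21.4% were then lower in WAT, 14.4% higher in culture and 20.4% positive for the difference. DESeq2 called 35, 22 and 35, beside 27.7%, 9.77% and 22.8% of all genes in those directions. With voom 35, 19 and 35 were called, beside 25.0%, 9.12% and 20.5%. Precision is limited by the 3 libraries a group.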
